A study of Arabidopsis thaliana with 21 samples.

Results

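The 10 genes described here form most of the daytime and evening side of the Arabidopsis circadian clock, namely the pseudo-response regulators PRR9 (AT2G46790), PRR7 (AT5G02810), PRR5 (AT5G24470), PRR3 (AT5G60100) and TOC1 (AT5G61380), the clock protein GI (AT1G22770) with its F-box partner ZTL (AT5G57360), and the evening complex of ELF3 (AT2G25930), ELF4 (AT2G40080) and LUX (AT3G46640). They were taken by locus identifier from a table of 25263 genes, all 10 were found, and all 10 were among the 22222 genes that passed the minimum on the mean value and were tested. RNA was sequenced from 10-day-old, untreated Arabidopsis thaliana seedlings grown on MS agar at 20 °C under 16 h of light and 8 h of dark. In the groups At1+, At1++, At2+, At2++, At3+ and At3++ a full-length cDNA of AtIPCS1, AtIPCS2 or AtIPCS3, the isoforms of inositol phosphorylceramide synthase, was over-expressed in the Col-0 background from the vector pK7WG2, which carries a constitutive cauliflower mosaic virus promoter. Each of these 6 groups was 1 transgenic line, so that a difference from Col-0 cannot be told apart from an effect of the insertion site of that line. The reference was wild-type Col-0 without a transgene, grown in the same way. Each group had 3 libraries except At3+, whose replicates 1 and 2 held identical values for all genes, closer than sampling noise allows, and were counted as 1 library (n = 2). The hour of harvest is not given in the sources used here, so that the phase of these cycling genes at sampling is unknown. A changed level in a line therefore cannot be told apart from a shifted phase or a different hour of harvest.

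The plant clock is a chain of repressors that peak one after another through the day. The morning MYB factors CCA1 and LHY open the cycle, PRR9, PRR7, PRR5 and TOC1 then repress CCA1 and LHY in turn from morning to evening, and the evening complex represses PRR9, PRR7 and other targets around dusk. GI is a large protein of the late day that stabilizes the F-box protein ZTL, which in turn targets TOC1 and PRR5 for degradation, and GI also promotes flowering in long days.

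The 20 distinct libraries held between 12733113 and 17210244 reads on genes, with a median of 15223423. The introduced transcripts were read first as a check of the labels. AtIPCS1 stood at 17726 normalized counts in At1+ and 45370.1 in At1++, against 172 in Col-0. For the other isoforms the order of the 2 lines went against the labels, since AtIPCS2 stood at 22612 in At2+ and at 12630.5 in At2++, against 823 in Col-0, and AtIPCS3 at 11933 in At3+ and at 5802 in At3++, against 57.7 in Col-0. The labels + and ++ rest on a selection of lines by qPCR, which is not analysed here, and the groups of these isoforms are therefore named by their labels only. One library stood apart in this check, since AtIPCS3 was at 318 normalized counts in At1++ replicate 1, against 47.6 and 44.7 in the other At1++ libraries and 52.3 to 62.3 in Col-0, and the source of these reads was not tested. Without At1++ replicate 1, 5 of the 10 members described below were called in At1++ against Col-0 in place of 4, and 4 in At1++ against At1+ as with it. Among tissue markers, 11 of 11 seed storage and oil body genes were called higher than Col-0 in every line, with summed normalized counts of 1933 to 3204 in At1+, 31423 to 35699 in At1++, 6244 to 7949 in At2+, 2904 to 3178 in At2++, 607 to 1092 in At3+ and 13299 to 16629 in At3++, against 25.5 to 33.4 in Col-0, where 4 of the 11 genes were at 0. The summed counts of 6 leaf genes ran from 245746 to 603871 over the lines, against 233135 to 253390 in Col-0, and those of 7 root genes from 25905 to 47516, against 23048 to 23628 in Col-0. These sums hide genes that moved the other way. Of the leaf genes, 1 was called lower in every line, LHCB2.1 at means of 1432 to 2123 over the lines, against 5315 in Col-0, while 2 were called higher in At1++, 3 in At2+, 3 in At2++ and 2 in At3++. Of the root genes, 4 were called higher in each of At1++, At2+, At2++ and At3++, where 2, 1, 1 and 1 were called lower, among them TIP2;3 in all 4 of these lines. The seed genes and LHCB2.1 were called also in At1+. Of the 10 members described below, 0 were called lower there (1.96% of all tested genes) and 0 higher (1.78%). By the adjusted p alone 4 fell (13.2%) and 2 rose (14.4%). In At2++, whose seed sums overlapped those of At1+, 4 members were called lower (4.91%). The part of these markers in the results was not tested. In seedlings, fewer cells that express a gene and less RNA per cell cannot be told apart.

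Sequences upstream of the members are shown because several of them carry the same short clock motif. The 300 bases from 250 before to 50 after the annotated start of each gene were read from the TAIR10.1 genome with the RefSeq annotation. In these windows of 27443 protein-coding genes, 4 motifs were searched on both strands. The annotated start was not checked against a transcription start. Windows may therefore lie differently to the transcript from gene to gene. The evening element AAAATATCT, which CCA1 and LHY bind, was found in 4 of the 10 members (PRR9, PRR5, TOC1 and LUX) and in 2.82% of all windows. The match of PRR9 lay after its annotated start. In the stretches below, which run 5′ to 3′ on the strand of the gene, the capitals mark the evening element, which reads in reverse complement in PRR5 and TOC1.
PRR5, chr5:8358713-8358745, minus strand, motif 187 bases before the start: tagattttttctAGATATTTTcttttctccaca
TOC1, chr5:24674800-24674832, plus strand, motif 151 bases before the start: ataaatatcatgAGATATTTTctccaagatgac
LUX, chr3:17182977-17183009, plus strand, motif 53 bases before the start: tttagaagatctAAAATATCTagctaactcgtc

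The G-box CACGTG, bound by PIF and other bHLH and bZIP factors, was found in 3 members, namely PRR9, PRR7 and LUX, against 7.68% of all windows. In the next stretches the capitals mark a G-box of PRR9 and the G-box of PRR7. PRR9 held another match 244 bases before its start, and the match of LUX lay 193 bases before its start. Whether the motif goes with the size of the changes was not tested.
PRR9, chr2:19232423-19232452, plus strand, motif 172 bases before the start: ttaggttaatgaCACGTGttaaggtggacc
PRR7, chr5:642214-642243, minus strand, motif 201 bases before the start: tacccaccattaCACGTGtcagttcaaaaa

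The LUX-binding hexamers GATACG and GATTCG were found in PRR9, ELF3 and ELF4 (3 members, 14.5% of all windows), and the CCA1-binding site AAAAATCT in PRR5 alone (7.88% of all windows), 198 bases before the start and not overlapping the evening element of that gene. GI, ZTL and PRR3 held none of these letters in the window. A match of letters is a description of the sequence and was not tested as a binding site.

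In Col-0, the members spanned a wide range of level per length of annotated exons. TOC1 was highest at 1349 normalized counts per kb, followed by ELF4 at 1094, ELF3 at 670, LUX at 558, PRR7 at 374, ZTL at 305, PRR5 at 299.7, GI at 273 and PRR3 at 261. PRR9, whose transcript peaks in the early morning, was far below the others at 9.27 normalized counts per kb. The order of the middle members depends on the annotated exons. These covered 3916 bases for LUX, whose span shares 1507 bases with a neighbour, and 1677 bases for PRR5. All other values in the text are normalized counts per gene, that is reads divided by a size factor of the library, and fold changes are differences of log2(normalized count + 1) of a line minus Col-0.

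GI, PRR7, PRR5 and PRR9 were the members with the large changes. A gene is said to have fallen or risen where limma's Benjamini-Hochberg adjusted p over all 22222 tested genes was under 0.05, and is said to be called where its absolute log2 fold change was also at least 1. Against Col-0, At1+ had 0 of 10 members called lower (background over all tested genes 1.96%), At1++ had 4 (5.02%), At2+ 4 (2.69%), At2++ 4 (4.91%), At3+ 2 (1.18%) and At3++ 4 (2.31%). No member was called higher in any line, where the background ran from 0.594% in At3+ to 5.9% in At2++. By the adjusted p alone, the members that fell numbered 4 in At1+ (13.2% of all tested genes), 9 for At1++ (19%), 9 for At2+ (21.5%), 9 for At2++ (26.2%), 5 for At3+ (4.37%) and 9 for At3++ (18.1%). By the same rule 2 members rose in At1+ (14.4%), and 0 rose in At1++ (19.8%), At2+ (22.6%), At2++ (25.8%), At3+ (4.94%) or At3++ (20.4%). The 6 comparisons share the Col-0 libraries.

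**Figure D1:**
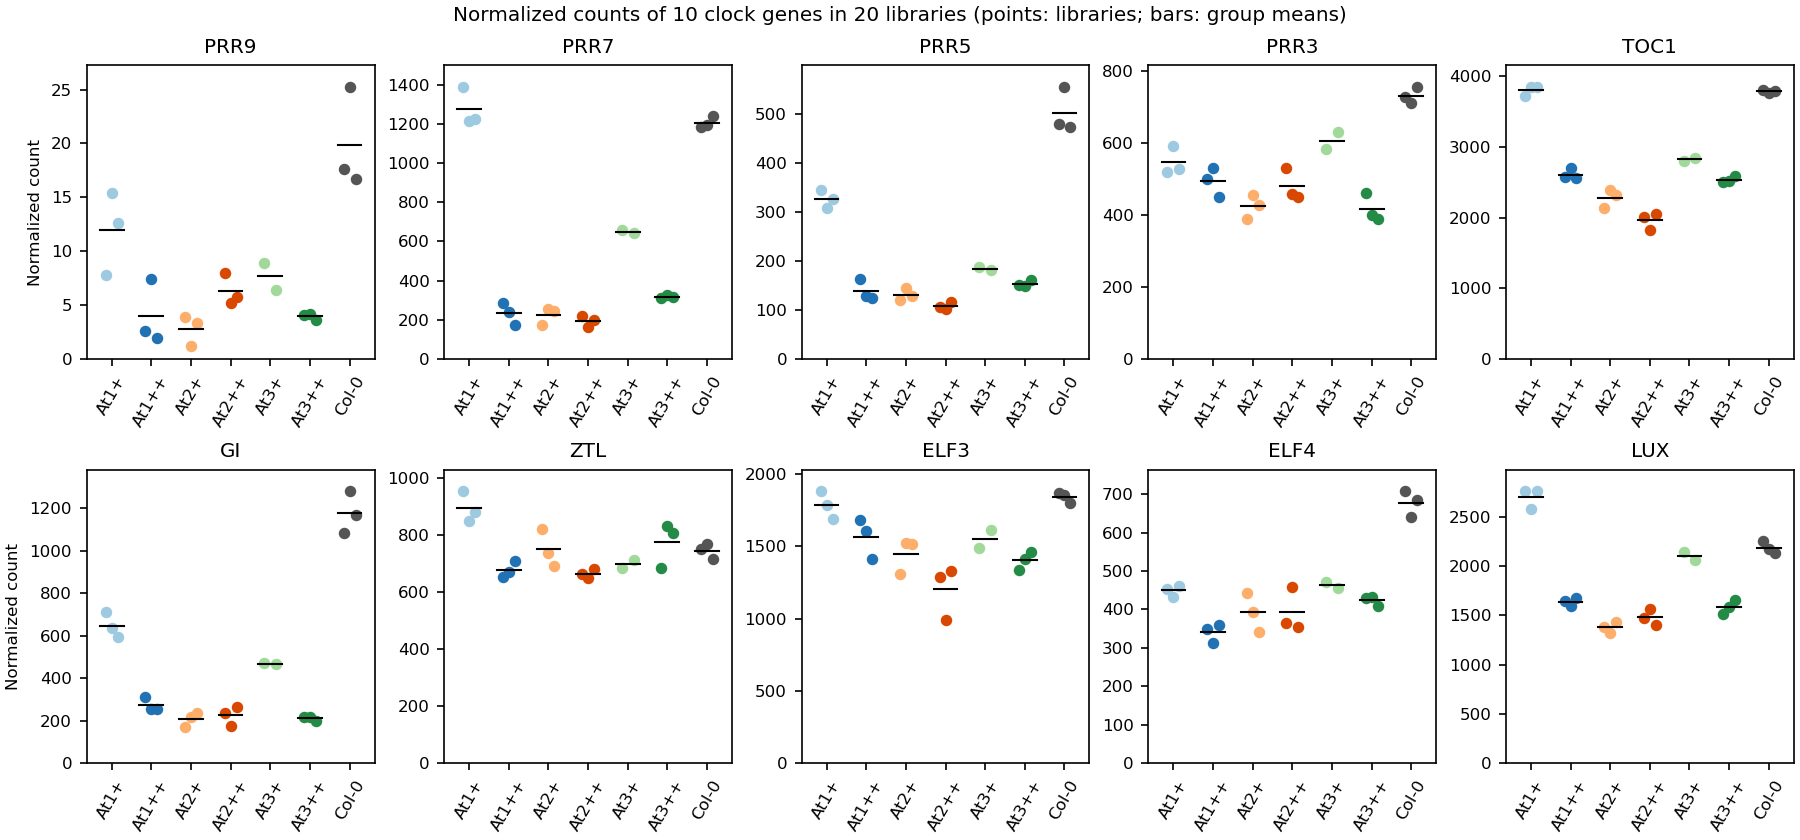
Normalized counts of the 10 members, each panel a gene with a linear axis from 0, in the 6 lines and Col-0. Points are libraries and bars are group means (n = 3, and n = 2 in At3+). PRR9, PRR5, PRR3, GI and ELF4 lie below Col-0 in all libraries of all 6 lines, while PRR7, TOC1 and LUX in At1+ do not.

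Among the pseudo-response regulators, PRR7, which represses CCA1 and LHY in the morning and at midday, spanned from no difference to some of the largest falls. It stood at 1389, 1214 and 1224 normalized counts in the At1+ libraries and at 284, 241 and 175 in the At1++ libraries, against 1184, 1196 and 1242 in Col-0. In the AtIPCS2 lines it stood at 174, 256 and 242 in At2+ and at 218, 164 and 201 in At2++. In the AtIPCS3 lines it stood at 657 and 642 in At3+ and at 311, 328 and 316 in At3++. At1+ overlapped Col-0 and every other line lay below it without overlap, with At3+ between Col-0 and the rest. The log2 fold change of PRR7 over Col-0 was 0.08 for At1+ (limma adjusted p = 0.726), -2.39 for At1++ (adjusted p = 3.11e-13), -2.44 for At2+ (adjusted p = 3.10e-13), -2.64 for At2++ (adjusted p = 3.69e-14), -0.89 for At3+ (adjusted p = 2.79e-04) and -1.92 for At3++ (adjusted p = 3.79e-11). PRR7 thus fell in 5 lines, was called in 4 of them, and was 6.24-fold lower in At2++. Neighbouring groups in the order of level overlapped for At2++, At2+ and At1++ at the low end and for Col-0 and At1+ at the high end.

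PRR5, which acts after PRR7 in the afternoon and is a target of ZTL, fell in all 6 lines. It stood at 345, 308 and 326 normalized counts in At1+, at 162, 128 and 123 in At1++, at 120.5, 144 and 128 in At2+, at 107, 102 and 115 in At2++, at 188 and 181 in At3+ and at 151, 149 and 162 in At3++, against 479, 555 and 473 in Col-0. No library of any line reached the lowest Col-0 library. The log2 fold change of PRR5 was -0.62 (At1+), -1.86 (At1++), -1.93 (At2+), -2.21 (At2++), -1.44 (At3+) and -1.70 (At3++), with limma adjusted p from 7.23e-05 in At1+ down to 9.02e-15 in At2++, and it was called in the 5 lines other than At1+. In the order of the groups At2++ was lowest at a mean of 108 ± 6.64 (SD, n = 3), At2+, At1++ and At3++ overlapped each other in sequence, and At3+, At1+ and Col-0 each stood clear of the next.

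PRR9, the earliest of the regulators, had few reads, between 1 and 27 per library. It stood at 7.78, 15.4 and 12.6 normalized counts in At1+, at 2.59, 7.39 and 1.94 in At1++, at 3.84, 1.16 and 3.32 in At2+, at 7.97, 5.21 and 5.76 in At2++, at 8.91 and 6.39 in At3+ and at 4.08, 4.19 and 3.60 in At3++, against 17.6, 25.2 and 16.7 in Col-0. Every library of every line lay below the lowest of Col-0, but the lines overlapped each other along the whole order. PRR9 was called lower in At1++ (log2 fold change -2.20, limma adjusted p = 8.49e-05), At2+ (-2.53, adjusted p = 1.36e-05), At2++ (-1.51, adjusted p = 0.00274) and At3++ (-2.05, adjusted p = 2.25e-04), and stood at -0.71 in At1+ (adjusted p = 0.199) and -1.26 in At3+ (adjusted p = 0.0809). Since the At2+ libraries held only 1 to 3 reads each, its fitted change there depends on the pseudocount, and the ratio of summed reads of At2+ over Col-0 per size factor was 0.139 (95% exact interval 0.0538 to 0.303, counting error only). The same ratio was 0.596 in At1+ (0.384 to 0.913), 0.208 in At1++ (0.108 to 0.374), 0.32 in At2++ (0.181 to 0.54), 0.383 in At3+ (0.214 to 0.654) and 0.201 in At3++ (0.0955 to 0.383). PRR9 in At3+ was called by edgeR on the recovered reads (log2 fold change -1.37, adjusted p = 0.0159) and by limma on the At3+ and Col-0 libraries alone (-1.26, adjusted p = 0.0282).

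TOC1, the evening regulator whose loss shortens the clock period, was the most abundant member per length in Col-0, with a coefficient of variation of 0.554 to 6.34% between the replicates of a group. It stood at 3728, 3850.0 and 3844 normalized counts in At1+ and at 2570.4, 2698 and 2557 in At1++, against 3804, 3765 and 3798 in Col-0. The other lines stood at 2134, 2396 and 2322 in At2+, at 2007, 1818 and 2052 in At2++, at 2804 and 2842 in At3+ and at 2511, 2517 and 2589 in At3++. At1+ overlapped Col-0, and the other 5 lines were below it without overlap. TOC1 fell in those 5 lines by less than the fold set for a call, with log2 fold changes of -0.54 (At1++), -0.73 (At2+), -0.95 (At2++), -0.42 (At3+) and -0.58 (At3++), at a limma adjusted p of at most 7.72e-05, while At1+ stood at 0.01 (95% interval -0.11 to 0.13, adjusted p = 0.948).

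PRR3, which in Arabidopsis protects TOC1 from ZTL, stood at 519.6, 592 and 527 normalized counts in At1+, at 499.6, 529 and 451 in At1++, at 388, 454 and 428 in At2+, at 531, 457 and 449 in At2++, at 582 and 631 in At3+ and at 459.8, 399 and 387 in At3++, against 729, 710.4 and 755 in Col-0. All lines lay below Col-0 without overlap, and all neighbouring lines in the order of level overlapped. PRR3 fell in 5 lines without a call, with log2 fold changes from -0.42 in At1+ to -0.82 in At3++ (limma adjusted p at most 5.36e-04). In At3+ the change was -0.27 (adjusted p = 0.0802).

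**Figure D2:**
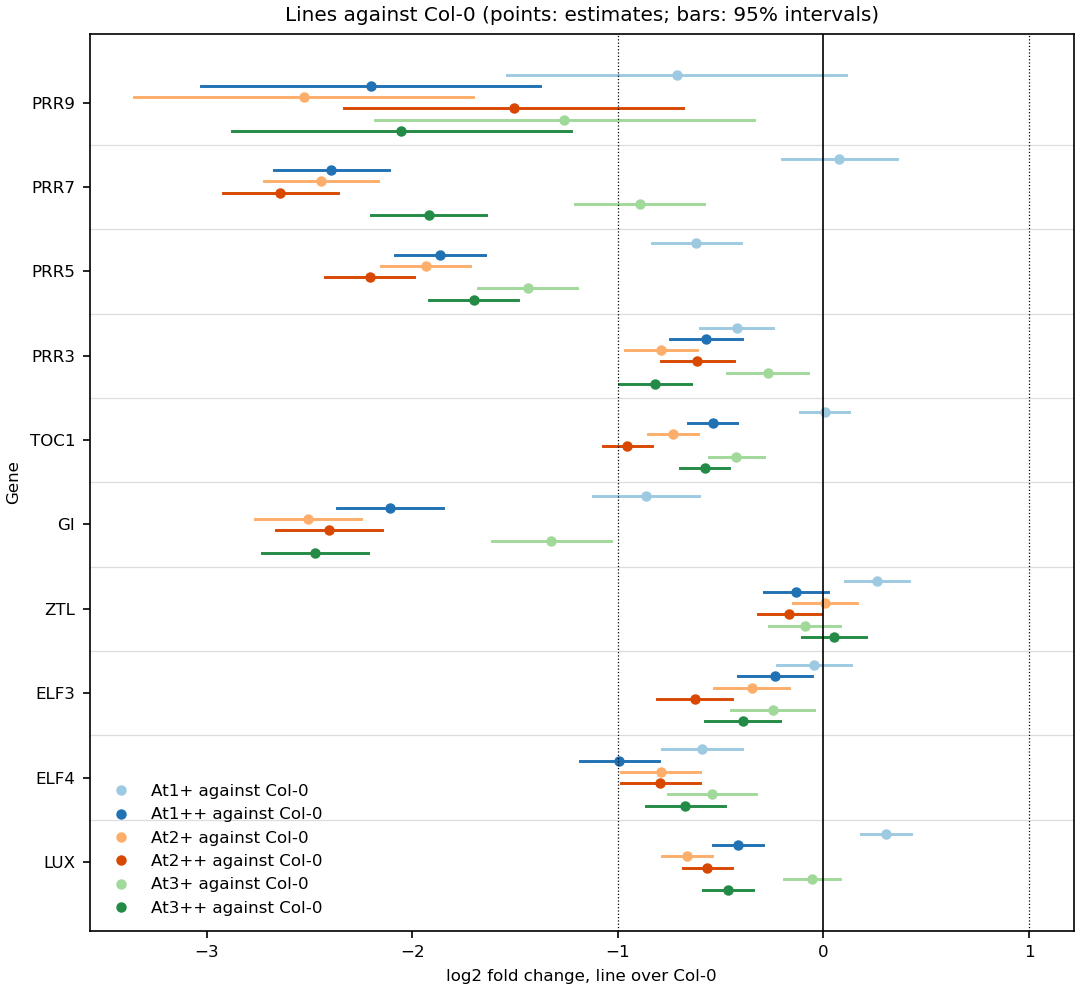
log2 fold change of each member in each line over Col-0 (limma on log2(normalized count + 1)), with points as estimates, bars as 95% intervals and dotted lines at the fold set for a call. GI, PRR7, PRR5 and PRR9 lie near or beyond -1 in the lines other than At1+, and ZTL lies near 0.

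GI fell in all 6 lines and was called in 5. It stood at 713, 634 and 592 normalized counts in At1+, at 309, 256 and 254 in At1++, at 170.4, 217 and 236 in At2+, at 236, 173 and 264 in At2++, at 472 and 465 in At3+ and at 217, 218 and 198 in At3++, against 1083, 1279.6 and 1168 in Col-0. The highest value of any line library, 713, was below the lowest Col-0 library. In At1+ the log2 fold change was -0.86 (95% interval -1.12 to -0.60, limma adjusted p = 9.80e-06). In At1++, At2+ and At2++ it was -2.11, -2.51 and -2.40 (adjusted p at most 8.65e-13), so that GI was 5.69-fold lower in At2+. In order of level, At2+, At3++, At2++ and At1++ overlapped as neighbours, and At3+, At1+ and Col-0 each stood apart from the next.

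ZTL, the F-box partner of GI, whose protein rather than transcript is known to cycle, was the member with the smallest differences. It stood at 953, 849 and 879.8 normalized counts in At1+, at 654, 672 and 710.3 in At1++, at 820.1, 737 and 692 in At2+, at 663, 648 and 682 in At2++, at 684 and 714 in At3+ and at 685, 832 and 807 in At3++, against 751, 768 and 716 in Col-0. ZTL rose in At1+ by a log2 fold change of 0.26 (95% interval 0.11 to 0.42, limma adjusted p = 0.0102). Without At1+ replicate 1 this was 0.21 (adjusted p = 0.0663). With reads scaled by the total of nuclear reads, in place of the deposited size factors, it was 0.17 (adjusted p = 0.0848). In the other lines the changes were -0.13 in At1++ (95% interval -0.29 to 0.02), 0.01 in At2+ (-0.15 to 0.16), -0.17 in At2++ (-0.32 to -0.01), -0.09 in At3+ (-0.26 to 0.08) and 0.05 in At3++ (-0.10 to 0.21), and none passed the test (limma adjusted p from 0.0681 to 0.954). With this scaling by total nuclear reads, the sign turned to -0.20 in At2+ (adjusted p = 0.0191) and to -0.10 in At3++ (adjusted p = 0.268). The same scaling shifted the median of all genes by -0.21 in At2+ and -0.15 in At3++.

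Of the evening complex, ELF4, the small protein among its parts, fell in all 6 lines. It stood at 453, 432 and 462 normalized counts in At1+, at 349, 313 and 359 in At1++, at 443, 394 and 341 in At2+, at 365, 458 and 354 in At2++, at 472 and 456 in At3+ and at 429, 433 and 409.9 in At3++, against 707, 639 and 684 in Col-0. All line libraries lay below Col-0, and neighbouring lines overlapped. Relative to Col-0, ELF4 differed by -0.59 (At1+), -0.99 (At1++), -0.79 (At2+), -0.79 (At2++), -0.54 (At3+) and -0.67 (At3++) on the log2 scale, at a limma adjusted p of at most 0.00106. The At1++ value lay just inside the fold set for a call and passed it in edgeR (-1.004) and in 3 of 6 fits that left out a library, namely Col-0 replicate 2 (-1.03), At1++ replicate 1 (-1.01) or At1++ replicate 3 (-1.03).

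LUX, the MYB-like factor that brings the complex to DNA, rose in At1+ and fell in 4 lines. It stood at 2758, 2583 and 2757 normalized counts in At1+ and at 1647, 1591 and 1678 in At1++, against 2255, 2168 and 2130.2 in Col-0. The other lines stood at 1383, 1321 and 1435 in At2+, at 1472, 1563 and 1400.5 in At2++, at 2141 and 2063 in At3+ and at 1508, 1582 and 1656 in At3++. At1+ lay above Col-0 without overlap, At3+ overlapped Col-0, and the other 4 lines lay below it. The log2 fold change of LUX was 0.30 for At1+ (limma adjusted p = 3.10e-04), -0.41 for At1++, -0.66 for At2+, -0.56 for At2++ and -0.47 for At3++ (adjusted p at most 3.14e-06), and -0.06 for At3+ (95% interval -0.19 to 0.08, adjusted p = 0.714). The annotated span of LUX shares 1507 bases with the neighbour AT3G46650, which had a mean of only 3.62 normalized counts.

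ELF3, the scaffold of the evening complex and a sensor of temperature, stood at 1882, 1784 and 1689 normalized counts in At1+, at 1679.9, 1608 and 1415 in At1++, at 1312, 1522 and 1513 in At2+, at 1291, 991 and 1328 in At2++, at 1489 and 1616 in At3+ and at 1333, 1413 and 1463 in At3++, against 1866, 1858 and 1799 in Col-0. At1+ overlapped Col-0 and the other 5 lines lay below it. ELF3 fell by a log2 fold change of 0.24 in At1++ (limma adjusted p = 0.0368), 0.35 in At2+ (adjusted p = 0.00230), 0.63 in At2++ (adjusted p = 1.88e-06) and 0.39 in At3++ (adjusted p = 9.85e-04), and stood at -0.05 in At1+ (adjusted p = 0.749) and -0.25 in At3+ (adjusted p = 0.130). The fall in At1++ was -0.16 without At1++ replicate 3 (adjusted p = 0.203), and its adjusted p was 0.0546 without the filter on low values and 0.0513 with a replicate block.

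Counted over libraries, the members that lay wholly below Col-0 numbered 5 for At1+ (background over all tested genes 19.8%), 10 for At1++ (25.1%), 9 for At2+ (25.9%), 10 for At2++ (28.3%), 9 for At3+ (19.9%) and 9 for At3++ (25.5%). In At1+, 2 members, ZTL and LUX, lay wholly above Col-0 (21.9%). The median log2 fold change of the 10 members was -0.23 (At1+), -0.78 (At1++), -0.79 (At2+), -0.87 (At2++), -0.48 (At3+) and -0.75 (At3++), while the median of all tested genes lay between -0.02 and 0.01 in these comparisons.

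The 2 lines of each isoform were compared with each other. Each is 1 transgenic line, so that transgene level and insertion site cannot be told apart in these comparisons. For AtIPCS1, whose transcript order followed the labels, At1++ stood called below At1+ for 4 of 10 members (5.44% of all tested genes), and 8 fell by the adjusted p alone (24.2%). No member was called higher (5.63%) or rose by the adjusted p alone (24.7%). The called members were PRR7 at -2.47 (limma adjusted p = 1.41e-13), PRR9 at -1.49 (adjusted p = 0.00323), PRR5 at -1.25 (adjusted p = 4.22e-10) and GI at -1.24 (adjusted p = 1.01e-08). LUX fell by 0.72, TOC1 by 0.55, ELF4 by 0.40 and ZTL by 0.40 on the log2 scale (adjusted p at most 8.78e-04), and PRR3 and ELF3 stood at -0.15 and -0.19 without passing the test.

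For AtIPCS2, At2++ stood called below At2+ for 0 of 10 members (2.57%) and called above it for 0 (1.11%). By the adjusted p alone 0 members rose (9.93%) and 2 fell (10.5%), namely TOC1 by 0.22 (limma adjusted p = 0.00776) and ELF3 by 0.28 on the log2 scale (adjusted p = 0.0273). Without At2++ replicate 2 these were -0.17 (adjusted p = 0.05002) and -0.14 (adjusted p = 0.222). GI differed by 0.10 (95% interval -0.16 to 0.36) and PRR7 by -0.20 (-0.48 to 0.08), neither of which passed the test (adjusted p = 0.618 and 0.332). PRR9 was at 1.02 (adjusted p = 0.0730), and without At2+ replicate 1 it was called higher at 1.24 (adjusted p = 0.0487). At2+ replicate 1 and At2++ replicate 2 stood apart within their groups, with the highest leaf marker sums (533305 and 603871), the lowest GI (170.4 and 173), PRR7 (174 and 164), TOC1 (2134 and 1818) and ELF3 (1312 and 991) and the highest ELF4 (443 and 458). With both left out, an alternative chosen after the data were seen, 4 members were called in At2+, 4 in At2++ and 0 between the 2 lines, as with all libraries.

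For AtIPCS3, At3++ stood called below At3+ for 2 of 10 members (0.774%), GI at -1.15 (limma adjusted p = 1.10e-06) and PRR7 at -1.03 (adjusted p = 1.60e-05), and PRR3 and LUX fell by 0.55 and 0.41 on the log2 scale (adjusted p = 1.36e-04 and 4.53e-05), which made 4 by the adjusted p alone (9%). No member was called higher in At3++ (2.94%) or rose by the adjusted p alone (13%). PRR5, at -0.26, and PRR9, at -0.79, did not pass the test (adjusted p = 0.120 and 0.224). The AtIPCS3 transcript itself was the lower of the pair in At3++. In the same comparisons, the seed markers were called higher in 11 of 11 genes for At1++ against At1+ and for At3++ against At3+, and called lower in 5 of 11 for At2++ against At2+. Of the 6 leaf genes, 2 were called higher for At1++ against At1+ and 0 were called in the other pairs. Of the 7 root genes, 2 were called lower and 2 higher for At1++ against At1+, 1 lower and 1 higher for At2++ against At2+, and 1 lower and 3 higher for At3++ against At3+. The part of these markers was not tested.

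**Figure D3:**
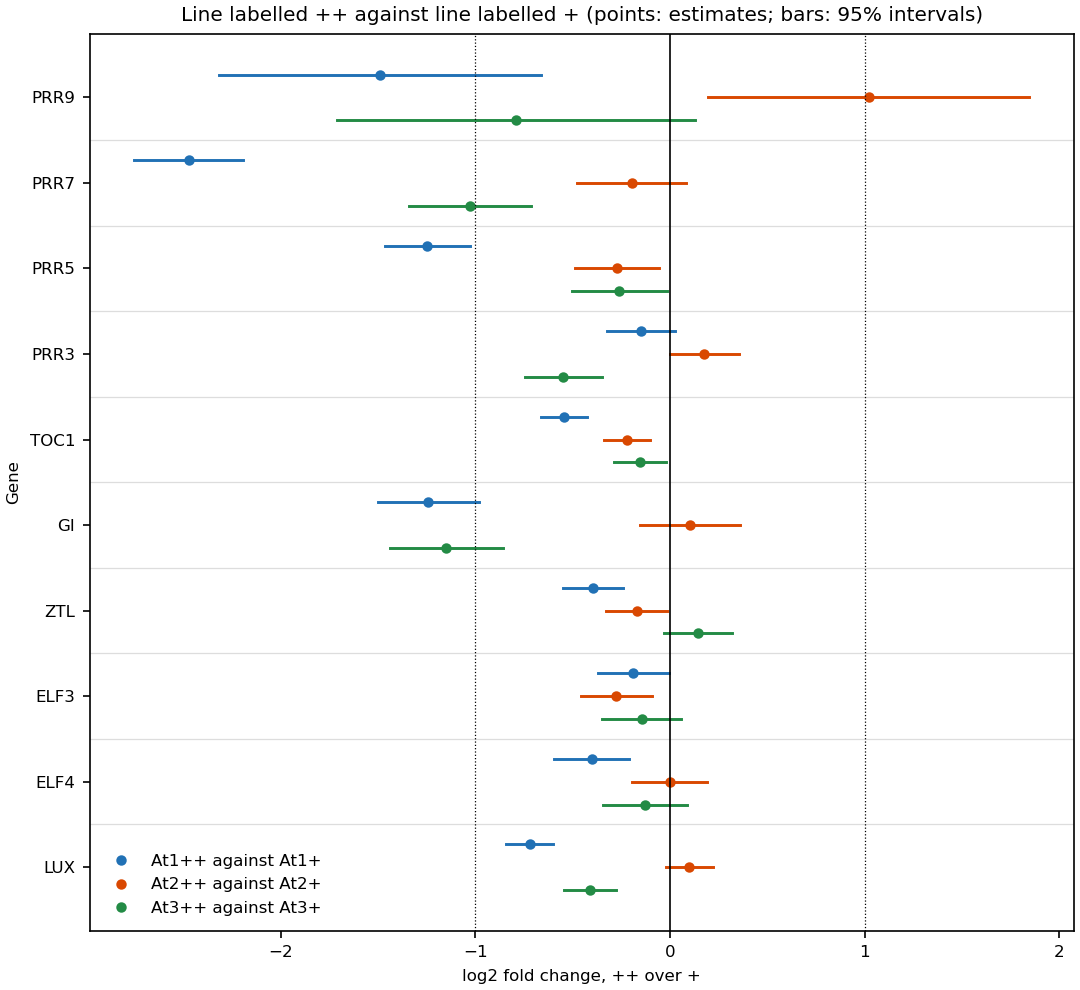
log2 fold change of each member in the line labelled ++ over the line labelled + of the same isoform, with points as limma estimates, bars as 95% intervals and dotted lines at the fold set for a call. PRR7, PRR5, GI and PRR9 lie below -1 for AtIPCS1, GI and PRR7 for AtIPCS3, and no member for AtIPCS2.

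The difference between isoforms in this change was itself tested, on the same single lines. The change of At1++ over At1+ minus that of At2++ over At2+ was called lower for 3 members (3.03% of all tested genes), PRR9 at -2.51, PRR7 at -2.27 and GI at -1.35, and 0 were called higher (3.71%). By the adjusted p alone it was lower for 8 members (14.3%), that is for all but ZTL and ELF3, and higher for 0 (13.7%). Against the AtIPCS3 pair, 1 member was called lower (5.3%), PRR7 at -1.44, and 0 higher (2.62%). By the adjusted p alone PRR7, PRR5, TOC1, ZTL and LUX were lower (5 members, 15.5%) and PRR3 was higher (1 member, 12.4%), while GI differed by -0.09 (95% interval -0.48 to 0.30, limma adjusted p = 0.764). The change for AtIPCS2 minus that for AtIPCS3 was called higher for 2 members (1.23%), PRR9 at 1.81 and GI at 1.25, and lower for 0 (4.16%). By the adjusted p alone PRR9, PRR7, PRR3, GI and LUX were higher (5 members, 9.14%) and ZTL was lower (1 member, 12.2%). The PRR9 call in this last difference was lost in edgeR (2.08, adjusted p = 0.0577), in DESeq2 (2.14, adjusted p = 0.121) and in 5 of 11 fits that left out a library, namely At2+ replicate 2 (1.45, limma adjusted p = 0.0878), At2++ replicate 1 (1.65, adjusted p = 0.0748), the duplicated At3+ library (1.60, adjusted p = 0.128), At3+ replicate 3 (2.02, adjusted p = 0.0617) or At3++ replicate 3 (1.76, adjusted p = 0.0595). PRR5 stood just short of a call at -0.97 for AtIPCS1 minus AtIPCS2 and at -0.99 for AtIPCS1 minus AtIPCS3 (adjusted p at most 3.32e-05). It passed in 4 fits that left out a library in each of these, at -1.10 without At1++ replicate 1, -1.01 without At1+ replicate 2, -1.04 without At2+ replicate 2 and -1.01 without At2++ replicate 2, and at -1.11, -1.03, -1.01 and -1.01 without At1++ replicate 1, At1+ replicate 2, the duplicated At3+ library and At3++ replicate 2.

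Across the 20 libraries the members were correlated with each other to different degrees. Pearson's r of log2(value + 1) was 0.955 for PRR5 and GI, 0.945 for PRR7 and TOC1 and 0.942 for PRR7 and PRR5, and lowest for PRR3 and ZTL at -0.04. Among pairs without ZTL it was lowest for ELF3 and ELF4 at 0.409, below that of ZTL and LUX at 0.575. These are descriptions over libraries that share 7 groups, so that most of the variation is between groups. Outside the members, and among genes with a mean of at least 50 normalized counts, the genes most like PRR7 were ABF4 (r = 0.981), an abscisic acid response factor, and COL5 (0.976), and those most like TOC1 were RHF2A (0.978) and again COL5 (0.975). The pattern of PRR5 was closest to that of the growth-promoting bHLH factor PIF4 (0.968) and of SPP1 (0.954), and that of PRR3 to PIF7 (0.944) and AT4G13050 (0.932). For GI the closest were PK1 (0.952) and BBX8 (0.952), for ELF3 DEG15 (0.969) and PUM3 (0.947), for ELF4 AT1G70810 (0.939) and AT2G16365 (0.927), and for LUX AT2G39000 (0.986) and PEX11C (0.979). ZTL had the weakest neighbours, CDKE;1 (0.894) and ATL15 (0.890), and PRR9 was under the minimum for this search.

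Of 35 other clock genes tested, namely MYB factors of the CCA1 and REVEILLE family, LNK coactivators, relatives of the members, cofactors and outputs, the lower calls numbered 5 for At1+, 18 for At1++, 16 for At2+, 18 for At2++, 8 for At3+ and 16 for At3++, beside the backgrounds given above. The higher calls numbered 0 for At1+ (background 1.78%), 1 for At1++ (4.06%), 1 for At2+ (4.76%), 1 for At2++ (5.9%), 0 for At3+ (0.594%) and 1 for At3++ (4.04%). Some of these genes changed by the adjusted p alone, beside the shares for that rule given above. JMJD5 rose in all 6 lines and CHE in 4, at median log2 fold changes of 0.37 and 0.35 over the lines. Neither was called or fell in any line. RVE5 and GRP7, likewise never called, fell in 4 lines each. All 4 LNK genes were called lower in At1++, At2+, At2++ and At3++. LNK1, a coactivator that works with the REVEILLE factors on PRR5 and TOC1, was called in all 6 lines, at 42.4, 29.5, 40.5, 43.2, 40.5 and 36.6 mean normalized counts in At1+, At1++, At2+, At2++, At3+ and At3++, against 161 in Col-0. CDF1 and CDF3, repressors of flowering genes that GI with FKF1 removes, were also called in all 6 lines, with log2 fold changes from -1.36 in At2++ to -2.23 in At1+ for CDF1 and from -1.25 in At1+ to -2.37 in At2+ for CDF3. LNK4, CDF5 and LNK3 were called in 5 lines. LNK4 stood at -0.31 in At1+ (limma adjusted p = 0.360) and from -1.20 in At3+ to -3.42 in At2++ elsewhere. LNK3 stood at -0.69 in At1+ (adjusted p = 0.145) and ran to -2.15 in At3++. CDF5 stood at -1.79 in At3+ (adjusted p = 0.0532), with low means of 0.67 normalized counts in At2++ and 1.14 in At2+, against 17.0 in Col-0. The morning factor CCA1 was called lower in 4 lines and LHY in 1. In the same order of lines, CCA1 had means of 26.5, 8.68, 8.86, 20.3, 23.2 and 8.41, against 49.5 in Col-0. LHY had means of 23.0, 9.64, 16.3, 29.2, 26.3 and 15.8, against 29.9 in Col-0.

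**Figure D4:**
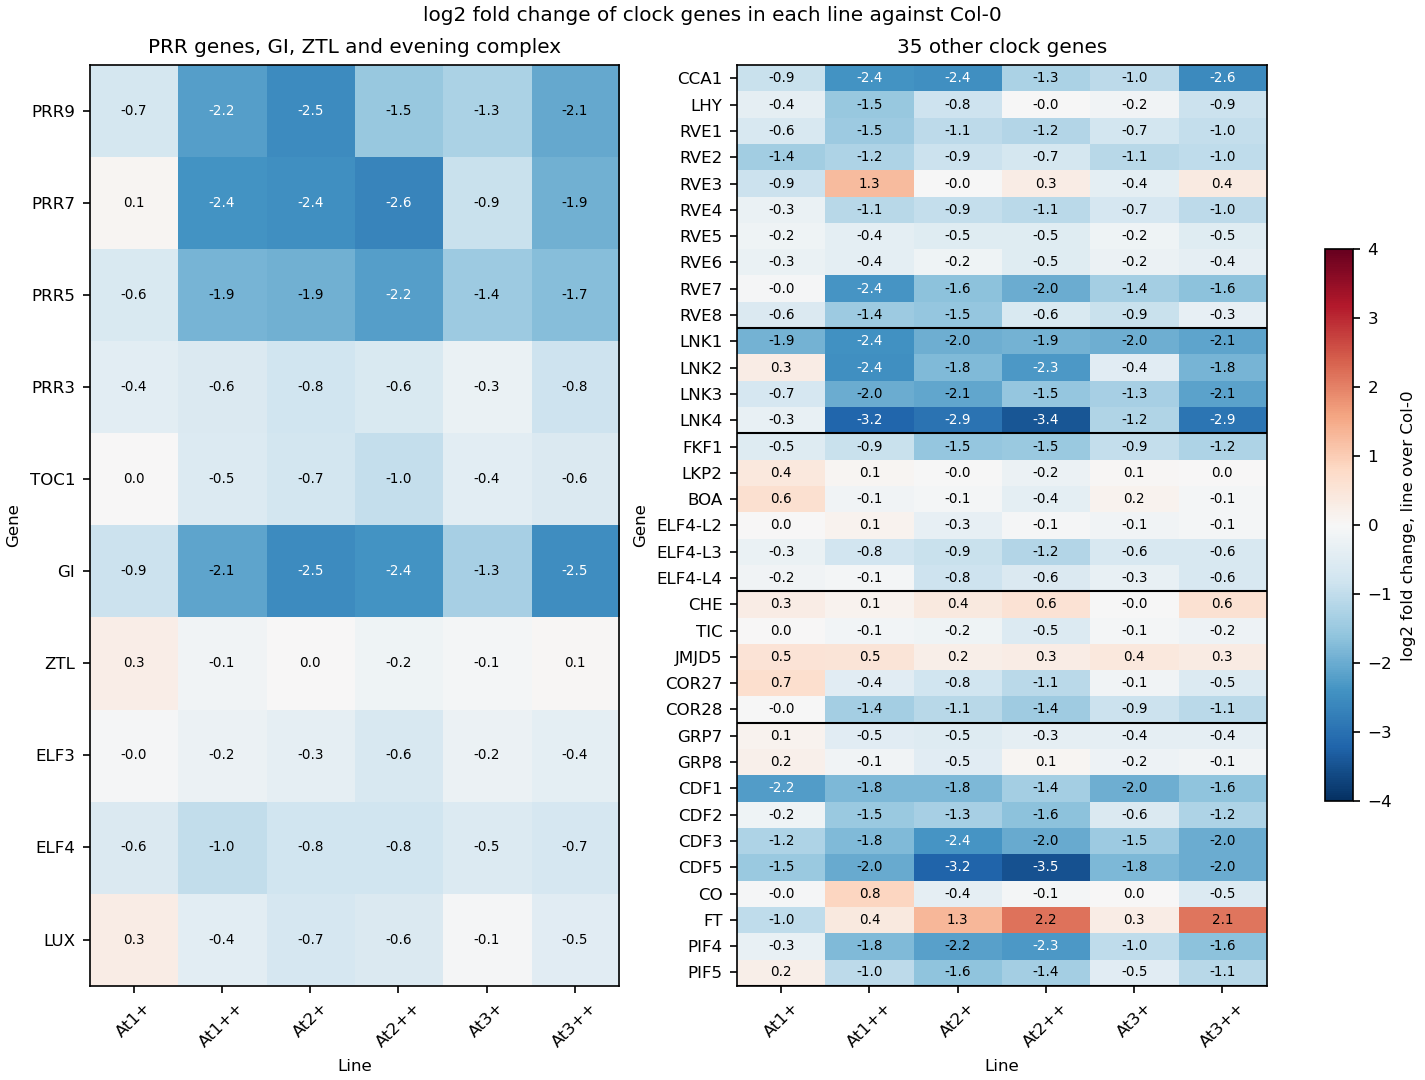
log2 fold change of a line over Col-0, printed in each cell and shown by colour from blue (lower) to red (higher), for the 10 members and for the 35 other clock genes, with lines across separating MYB factors, LNK genes, relatives of members, cofactors and outputs. Columns are the 6 lines. LNK1, CDF1 and CDF3 are called lower in every column. Among the members, GI, PRR5 and ELF4 fell by the adjusted p in every column but were not called in every one. FT is the only gene at or above 2.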

How the data were processed

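Per the paper's methods and the labels, poly(A) RNA of whole seedlings was sequenced as 150-base single-end reads from a stranded kit, and the authors aligned them with STAR, counted them with HTSeq and normalized them with DESeq2. The deposited values are thus a signal of normalized counts, reads divided by a size factor per library. Whole reads were recovered for 100% of values (tolerance 0.01), and 0 columns were left unused. log2(value + 1) of genes with a mean of at least 1 was fitted in limma 3.58.1 (R 4.3.3, variance trend) with the 7 groups as the only factor, and adjusted p-values were taken over all 22222 genes. The paper calls the libraries of a line experimental replicates in one place and technical triplicates in others, so these p-values may measure technical spread alone. The alternatives were edgeR 4.0.16 and DESeq2 1.42.0 on recovered reads, a pseudocount of 0.1, no filter, only the libraries compared, a replicate block, scaling over nuclear genes, no fold minimum and each library left out. Scaling over nuclear genes divided the reads of a library by its total of nuclear reads, in place of the deposited size factor. It thus changed the kind of scaling, while organelle reads made up only 0.0498% to 1.12% of a library. The fitting code was tested on simulated data. Named genes are all members, the 6 of 35 other clock genes called in most lines (ties by median change) and the 2 genes most correlated with each member. CCA1 and LHY were added as targets of the members, and JMJD5, CHE, RVE5 and GRP7 as examples of changes by the adjusted p alone. Intervals on reads cover counting error only. The members and lists were chosen with earlier results of these data known. All 73 listed loci matched RefSeq TAIR10.1, where LUX is named PCL1, and the build of the authors' alignment is the Araport release. Columns of the authors' own comparisons were not used.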

Additional observations from a re-analysis of the deposited data

Results flagged for a closer look

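The change of the line labelled ++ over the line labelled + differed between isoforms by at least the fold set for a call in 3 members, by limma's test of the difference itself with adjustment over all genes. For AtIPCS1 minus AtIPCS2 the difference was -2.51 for PRR9 (adjusted p = 0.00161), -2.27 for PRR7 (adjusted p = 3.47e-09) and -1.35 for GI (adjusted p = 3.37e-06). For AtIPCS1 minus AtIPCS3 it was -1.44 for PRR7 (adjusted p = 6.09e-06). For AtIPCS2 minus AtIPCS3 it was 1.81 for PRR9 (adjusted p = 0.0318) and 1.25 for GI (adjusted p = 2.71e-05). This PRR9 call was lost in edgeR (adjusted p = 0.0577), in DESeq2 (adjusted p = 0.121) and in 5 of 11 fits that left out a library. The count for AtIPCS1 minus AtIPCS3 was 2 without At1++ replicate 1, the library with raised AtIPCS3 reads, where PRR5 passed at -1.11. The labels + and ++ do not follow the measured transcript for AtIPCS2 and AtIPCS3, so the direction of these differences refers to the labels.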

How the results depend on the processing

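Limits of these data are the single line per group, the unknown hour of harvest, n = 2 for At3+ and the 1 to 27 reads of PRR9, which make its values the least certain. The counts of called members kept within 1.5 times under a pseudocount of 0.1, no filter on low values, only the libraries compared, scaling over nuclear genes and the replicate block. Replicate numbers did not pair the libraries (correlations of same-numbered deviations from -0.10 to 0.14). With the replicate block the members called were 4 in At1++, as without it, and no call changed. Without a fold minimum the members past the threshold were 6, 9, 9, 9, 5 and 9 against Col-0 (At1+, At1++, At2+, At2++, At3+, At3++), 8, 2 and 4 between the lines of AtIPCS1, AtIPCS2 and AtIPCS3, and 8, 6 and 6 for the differences between isoforms. For AtIPCS2 minus AtIPCS3 the count of 2 was 1 in edgeR and 1 in DESeq2, and 1 to 2 with a library left out. Leaving out a library gave 4 to 5 called members in At1++, 0 to 1 between the AtIPCS2 lines, 3 to 4 for AtIPCS1 minus AtIPCS2 and 1 to 2 for AtIPCS1 minus AtIPCS3, and the other counts did not move. Scaling over nuclear genes turned the sign of PRR7 (-0.019) and TOC1 (-0.089) in At1+, of ZTL in At2+ (-0.20) and At3++ (-0.10), and of differences between isoforms for GI (0.024) and ELF3 (0.074) in AtIPCS1 minus AtIPCS3 and PRR5 (0.10) and TOC1 (0.044) in AtIPCS2 minus AtIPCS3. It shifted the median of all genes against Col-0 by -0.21 (At2++), -0.21 (At2+), -0.15 (At3++), -0.094 (At1++), -0.093 (At1+) and -0.031 (At3+), and that of the differences by 0.12 for AtIPCS1 minus AtIPCS3 and 0.11 for AtIPCS2 minus AtIPCS3, so that the moves of these members were of the size of the move of all genes. It also took PRR3 (-1.001) and ELF4 (-1.002) in At2+, TOC1 (-1.17) and ELF4 (-1.01) in At2++ and ELF4 (-1.09) in At1++ past the fold minimum. ELF4 between the AtIPCS2 lines was 0.00022 in edgeR and 0.000358 in DESeq2. Leaving out a library turned the sign of values near 0, with ranges of -0.001085 to 0.022 for TOC1 in At1+, -0.060 to 0.062 for ZTL in At2+, -0.002541 to 0.14 for ZTL in At3++, -0.032 to 0.28 for GI and -0.12 to 0.089 for ELF4 between the AtIPCS2 lines, and, for the differences between isoforms, -0.046 to 0.16 for ELF3 in AtIPCS1 minus AtIPCS2, -0.10 to 0.028 for ELF3 in AtIPCS1 minus AtIPCS3 (0.015 without the duplicated At3+ library), and -0.070 to 0.057 for PRR5 and -0.21 to 0.0023 for ELF3 in AtIPCS2 minus AtIPCS3. Without both libraries that stood apart, ZTL in At2+ was -0.06 (adjusted p = 0.559). The cause of these changes was not tested.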
